A study of Mus musculus with 2 samples.

Results

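Expression of 10 genes of bacterial and nucleic acid sensing was examined in 2 RNA-seq libraries of mouse bone marrow cells, comprising 8 Toll-like receptors (Tlr1, Tlr2, Tlr4, Tlr6, Tlr7, Tlr8, Tlr9 and Tlr13), the co-receptor Cd14 and the adaptor Myd88. The genes were chosen by name, but with earlier results of these data known. Their shares set beside those of all genes are therefore descriptions, not tests. Each level was the sum of TPM (a transcript level corrected for length and depth) over the assembled loci given to the GENCODE vM21 gene with which they shared the most exon bases on their strand. In M and in MR, none of the 10 shared its locus with another gene. They were read against 13449 genes with an unshared locus that reached 1 TPM in M, in MR or in both. Both libraries were from WT bone marrow cells. The cells of the M library had received M-CSF (macrophage colony-stimulating factor, which keeps macrophages and their precursors alive), and those of the MR library M-CSF plus RANKL (receptor activator of NF-κB ligand, which drives precursors to become bone-resorbing osteoclasts). The labels give 2 days of M-CSF and then 2 days of both factors in the same words for both libraries, so the harvest day of the M culture was not given on its own. The culture methods of the study give a longer time with RANKL than the labels, so the exposure of the MR cells is uncertain. Strain, age and the number of mice were not in the labels. There was 1 library per condition, so no test was made, and the intervals below cover counting error only.

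Toll-like receptors are membrane proteins that recognise conserved molecules of microbes. Tlr2 pairs with Tlr1 or Tlr6 to bind bacterial lipopeptides at the cell surface, and Tlr4 binds lipopolysaccharide that Cd14 hands over. Tlr7, Tlr8, Tlr9 and Tlr13 reside in endosomes and recognise nucleic acids, namely single-stranded RNA, RNA fragments, DNA with unmethylated CpG and bacterial ribosomal RNA. All of these receptors signal through Myd88, which recruits kinases of the Irak family, and in macrophages this leads to inflammatory cytokines, whereas in osteoclast precursors the same ligands are known to interfere with differentiation.

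All 10 genes were lower in MR than in M. Their log2 ratios of MR to M, calculated from TPM + 1, ran from -2.65 for Tlr13 to -0.74 for Tlr2, with a median of -1.69, whereas the median over the 13449 genes was 0.21 and 40.5% of those genes were below 0. A log2 ratio below -1 was found in 7 of the 10 genes against 13.2% of all genes, and a ratio below -2 in 4 of 10 against 3.87%. None of the 10 was above 1, a range that held 21.3% of all genes. The 4 genes below -2 were the 4 endosomal receptors, of which Tlr7 was at -0.87 when coverage was used in place of TPM. The 10 genes summed to 901.8 TPM in M and 247.6 in MR, which was 27.5% of the M level.

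**Figure D1:**
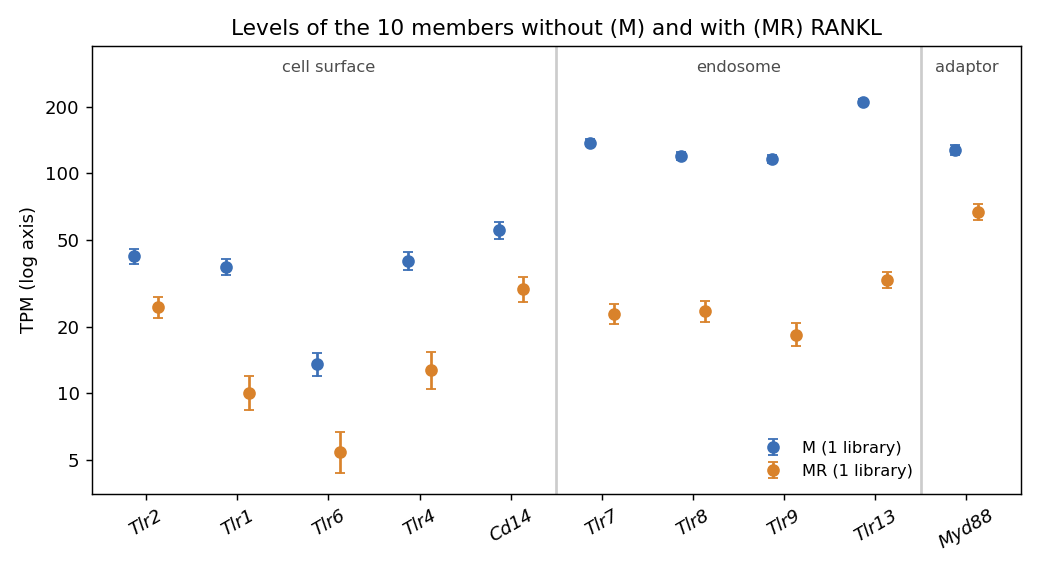
TPM (log axis) of each gene in the M (blue) and MR (orange) libraries; bars are 95% counting intervals and vertical lines divide cell-surface, endosomal and adaptor genes. Each gene is lower in MR, and the 4 endosomal receptors go from 116.2 to 210.8 TPM in M to 18.5 to 32.8 TPM in MR.

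The labelled cells were compared with their defining genes. All 9 osteoclast genes examined were above 1 on the log2 scale in MR, against 21.3% of all genes. Ctsk (cathepsin K, the collagen-cleaving protease) was at 53.1 TPM in M and 12867 in MR, and 4 of the 9 (Calcr, Oscar, Dcstamp and Ocstamp) were listed at 0 in M. Macrophage genes were present in both libraries, since Csf1r (the M-CSF receptor) was at 697.2 and 871.9 TPM and Cd68 at 2607 and 2171. However, 4 of the 7 macrophage genes, Adgre1, Mertk, Fcgr1 and Lyz2 (whose locus was shared with another gene), were below -1, against 13.2% of all genes. The 7 macrophage genes summed to 21457 TPM in M and 7937 in MR, of which Lyz2 alone was 16035 and 4535. Neutrophil genes, whose cells also carry several Toll-like receptors, summed to 1365 and 952.6 TPM over 8 genes. None of these 8 was below -1 (13.2% of all genes) or above 1 (21.3%). B cell genes summed to 13.1 and 8.50 TPM, with 2 of 4 below -1 (13.2% of all genes), and the 3 T cell genes had no locus. Among plasmacytoid dendritic cell genes, whose cells are rich in Tlr7 and Tlr9, Siglech was at 1.63 and 1.58 TPM and Ccr9 at 0 and 1.36. The summed level of that list, 3592 and 2044 TPM, was nearly all Bst2 (3574 and 2028 TPM), which macrophages also express. Conventional dendritic cell genes summed to 15.8 and 18.7 TPM, erythroid genes to 3.35 and 2.11, mast cell and basophil genes to 6.41 and 3.30, and stromal genes to 20.5 and 36.2. The part of other cells in the receptor levels was not tested. In such bulk RNA, fewer cells of a type and less RNA per cell cannot be told apart.

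For the 3 endosomal receptors that matched, 300-base windows around the RefSeq starts (GRCm38.p6) are given. That of Tlr2, the receptor with the smallest log2 difference on the TPM scale, is given beside them. Capitals mark the core motif GAGGAA of PU.1, the myeloid factor encoded by Spi1, on either strand. The same letters were in the window of the surface receptor Tlr1 and in 28.3% of all windows. The windows hold 250 bases before and 50 after the start, at chrX:106143025-106143324 (plus strand) for Tlr13, chr9:106222348-106222647 (plus) for Tlr9, chrX:167264280-167264579 (minus) for Tlr8 and chr3:83841559-83841858 (minus) for Tlr2.
Tlr13: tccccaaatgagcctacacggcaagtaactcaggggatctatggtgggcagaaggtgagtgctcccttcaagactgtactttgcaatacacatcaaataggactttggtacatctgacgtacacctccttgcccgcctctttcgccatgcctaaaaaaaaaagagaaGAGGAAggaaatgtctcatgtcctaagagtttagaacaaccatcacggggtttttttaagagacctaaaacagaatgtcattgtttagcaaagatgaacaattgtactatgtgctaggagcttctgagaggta
Tlr9: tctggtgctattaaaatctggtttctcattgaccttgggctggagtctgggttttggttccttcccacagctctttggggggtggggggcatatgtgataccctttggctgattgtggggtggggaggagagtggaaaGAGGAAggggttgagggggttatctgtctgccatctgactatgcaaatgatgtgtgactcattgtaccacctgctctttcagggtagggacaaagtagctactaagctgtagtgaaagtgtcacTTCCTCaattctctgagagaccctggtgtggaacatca
Tlr8: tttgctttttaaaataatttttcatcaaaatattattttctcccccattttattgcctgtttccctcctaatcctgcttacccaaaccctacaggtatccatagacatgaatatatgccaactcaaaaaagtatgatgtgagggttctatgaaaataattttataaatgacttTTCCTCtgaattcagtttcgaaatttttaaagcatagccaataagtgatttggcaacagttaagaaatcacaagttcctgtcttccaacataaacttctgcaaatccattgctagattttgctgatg
Tlr2: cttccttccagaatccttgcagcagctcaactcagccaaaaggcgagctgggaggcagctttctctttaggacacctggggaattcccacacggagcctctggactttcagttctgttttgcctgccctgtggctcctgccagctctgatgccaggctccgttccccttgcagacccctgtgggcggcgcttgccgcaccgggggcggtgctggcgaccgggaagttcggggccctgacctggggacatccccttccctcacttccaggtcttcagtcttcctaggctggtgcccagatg

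The RefSeq promoter table matched 7 of the 10 genes, with 9 windows for them among 32851. The letters GAGGAA were in 4 of these 9 windows, those of Tlr1, Tlr8, Tlr9 and Tlr13, and in 28.3% of all windows. In Tlr13 the motif began 83 bases before the RefSeq start, in Tlr8 77 before and in Tlr1 23 before, while Tlr9 had it at 112 before and again 12 bases after the start. The assembled Tlr9 locus began 3694 bases upstream of that start in M and 449 in MR, so its window lay inside the locus. In M the loci of Tlr6, Myd88 and Tlr2 began 1131, 1351 and 359 bases upstream of their RefSeq starts. Whether these windows hold the starts used in the cells was not tested. The interferon response letters GAAANNGAA were found for Myd88, Tlr6 and Tlr8 (8.56% of all windows), with the Tlr8 match beginning 10 bases after the first base of its PU.1 core. GGAANNGAA, a composite of PU.1 and an interferon regulatory factor, was in none of the 7 genes (8.24% of all). TGANTCA, the AP-1 motif, was only in Tlr9 among the 7 (7.81% of all), and GGNNTTTCC, a form of the NF-κB motif, only in Myd88 (5.82%). TATAAA, the TATA box, was in Myd88, Tlr6 and Tlr8 (13.6%), and in Tlr8 the matches on both strands overlapped each other but no other motif. The Tlr2 window held none of the 6 letter runs. Other forms of these motifs, among them those of NF-κB, were not searched, so their absence from any window was not shown. The Tlr2 window was 62.0% G and C, against 32.3% for Tlr8, 43.3% for Tlr13 and 49.7% for Tlr9. All motifs were searched on both strands, and a match is a run of letters, not a measured binding site. Spi1 itself was at 571.2 TPM in M and 956.4 in MR, whereas Irf8, an interferon regulatory factor of the myeloid lineage, was at 154.7 and 25.2.

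The endosomal receptors were the highest of the receptors in M. Tlr13, the receptor for bacterial ribosomal RNA (chrX:106143204-106160493, plus strand), was at 210.8 TPM in M (95% counting interval 204.9 to 216.9) and 32.8 in MR (30.2 to 35.6). This was a log2 ratio of -2.65 (-2.77 to -2.52), and only 1.67% of all genes had a lower one. Tlr9, the CpG DNA receptor (chr9:106222598-106226883, plus), was at 116.2 TPM (111.4 to 121.1) and 18.5 (16.4 to 20.8). Its log2 ratio was -2.59 (-2.76 to -2.41). Tlr7, the receptor for single-stranded RNA (chrX:167304929-167330558, minus), was at 138.1 TPM (132.9 to 143.4) and 23.0 (20.7 to 25.6), a log2 ratio of -2.53 (-2.69 to -2.38). Tlr8, its neighbour on the same strand 40599 bases away (chrX:167242696-167264329), was at 120.04 TPM (115.0 to 125.3) and 23.7 (21.2 to 26.4), with a log2 ratio of -2.29 (-2.46 to -2.13). The 4 endosomal receptors thus kept between 15.6% and 19.7% of their M level. The counting intervals of their log2 ratios overlapped for Tlr13, Tlr9 and Tlr7, while that of Tlr8 did not reach that of Tlr13.

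For Tlr7 the size of the difference depended on the unit. The deposited coverage of its locus in M was 29.6% of the coverage that its FPKM implies at the depth of that library, against 97.0% in MR. With coverage per aligned Gb in place of TPM, the log2 ratio of Tlr7 was -0.87 in place of -2.53, outside its counting interval. That interval came from read pairs estimated with FPKM, so it leaves this gap out. Coverage was also below the implied value in M for Tlr6 (65.8%) and Tlr13 (71.8%) whereas in MR listed and implied coverage of both were alike. On the coverage scale Tlr6 was at -0.59 and Tlr13 at -2.19. Tlr8, for which 93.3% and 92.4% were listed, was at -2.29 on the TPM scale and -2.30 on the coverage scale. Each gene was lower in MR on both scales, and the cause of the gap was not tested.

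Of the surface receptors, Tlr1 (chr5:64924679-64933563, minus), which pairs with Tlr2 for triacylated lipopeptides, was at 37.7 TPM (34.7 to 40.9) in M and 10.05 (8.36 to 12.0) in MR, with a log2 ratio of -1.81 (-2.07 to -1.54). Tlr4, the lipopolysaccharide receptor (chr4:66827584-66930284, plus), was at 40.03 TPM (36.3 to 44.1) and 12.8 (10.4 to 15.5), with a log2 ratio of -1.58 (-1.87 to -1.28). Tlr6, the partner of Tlr2 for diacylated lipopeptides (chr5:64952031-64960097, minus), was the lowest of the 10 in both libraries, at 13.6 TPM (12.1 to 15.3) and 5.43 (4.35 to 6.69). Its log2 ratio was -1.18 (-1.49 to -0.88). Tlr2 (chr3:83836272-83841767, minus) was at 41.9 TPM (38.9 to 45.1) and 24.6 (22.0 to 27.5), a log2 ratio of -0.74 (-0.93 to -0.56). The surface receptors kept between 26.7% and 58.8% of their M level, and the counting interval of Tlr2 lay above those of Tlr1 and Tlr4. Tlr1 was at 0.899 of the Tlr2 level in M and 0.408 in MR. Tlr6, the other partner, was at 0.324 and 0.220 of it, but the intervals of its log2 ratio and that of Tlr2 overlapped, and on the coverage scale Tlr6 (-0.59) differed less than Tlr2 (-0.64).

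Tlr1 and Tlr6 lie 18467 bases apart on chromosome 5 and are close in sequence. Of the 28 pairs among the 8 receptors, theirs was the only one with shared stretches of a read's length (150 bases), covering 4.83% of the start positions in Tlr1 and 3.94% in Tlr6, with a longest common run of 229 bases. The longest run in any other pair was 18 bases. Reads from that stretch could be placed in either gene, so the split between Tlr1 and Tlr6 is uncertain to that extent.

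Cd14 (chr18:36725067-36726798, minus), the anchored protein that passes lipopolysaccharide to Tlr4, was at 55.1 TPM (50.4 to 60.1) in M and 29.7 (25.9 to 34.0) in MR, giving a log2 ratio of -0.87 (-1.09 to -0.65). The level of Cd14 relative to Tlr4 was 1.38 in M and 2.33 in MR. Ly96 (MD-2), which forms the ligand pocket together with Tlr4, was at 35.7 and 25.4 TPM, so that it went from 0.892 to 1.99 of the Tlr4 level. The transcripts of Cd14 and Ly96 therefore differed less between the libraries than that of Tlr4 did.

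Myd88, the adaptor shared by all 8 receptors (chr9:119335934-119341411, minus), was at 128.3 TPM (121.7 to 135.2) in M and 66.98 (61.6 to 72.7) in MR. Its log2 ratio was -0.93 (-1.07 to -0.79), with 14.2% of all genes below it. The level of Myd88 was 0.179 of the summed level of the 8 receptors in M and 0.444 in MR. Of the 3 genes with ratios above -1, Myd88 was the nearest to that limit, and Tlr6 at -1.18 was the nearest of those below it. Without RANKL, Myd88 came after Tlr13 and Tlr7, and its interval overlapped those of Tlr7 and Tlr8, while in MR it was the highest, with an interval above all the others.

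**Figure D2:**
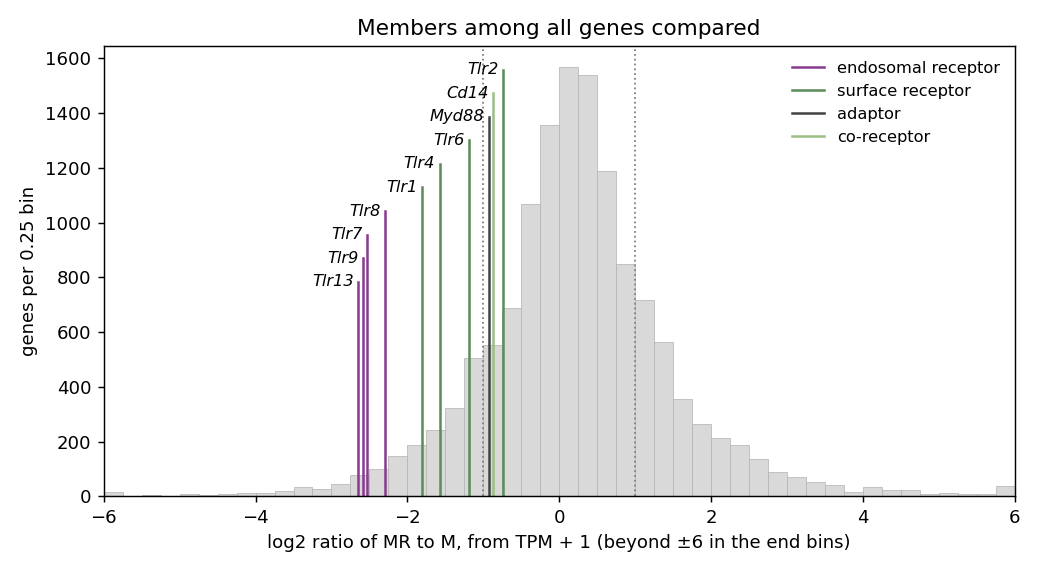
Histogram (grey) of the log2 ratio of MR to M over 13449 genes, in bins of 0.25, with the 10 genes as vertical lines coloured by role (line height only separates the names) and dotted lines at -1 and 1. The 4 endosomal receptors lie between -2.65 and -2.29, to the left of all the surface receptors.

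The order of levels differed between the libraries. In M it was Tlr13, Tlr7, Myd88, Tlr8, Tlr9, Cd14, Tlr2, Tlr4, Tlr1 and Tlr6, with intervals that overlapped between neighbours from Tlr7 to Tlr9 and from Tlr2 to Tlr1. In MR the order was Myd88, Tlr13, Cd14, Tlr2, Tlr8, Tlr7, Tlr9, Tlr4, Tlr1 and Tlr6, and each neighbour's interval overlapped the next from Tlr13 to Tlr9 and from Tlr4 to Tlr1. The endosomal receptors summed to 585.1 TPM in M and 98.04 in MR (16.8%), and the surface receptors to 133.3 and 52.9 (39.7%). The ratio of endosomal to surface receptor TPM was thus 4.39 in M and 1.85 in MR. Endosomal receptors made up 64.9% of the TPM of the 10 genes in M and 39.6% in MR. The place of Tlr7 in M depended on the unit, since by coverage per aligned Gb it was at 18.9, below Myd88 (58.6), Tlr8 (51.8), Tlr9 (46.9) and Cd14 (25.5). On that scale the ratio of endosomal to surface receptors was 3.39 in M and 1.86 in MR, and the endosomal share of the 10 genes was 57.4% and 39.2%.

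The assembled loci covered most of each gene. At least 92.1% of the annotated exon bases were inside the loci of every gene except Tlr4, for which 73.5% in M and 74.3% in MR were covered, as the loci ended 82847 and 84239 bases before the end of the longest annotated form. The loci of Tlr7, Tlr8, Tlr9 and Tlr13 ran past the annotated 3′ end, by 2774 and 2746 bases for Tlr8 and by 2511 and 2122 for Tlr9. The 5′ ends of some loci differed between the libraries. The Tlr9 locus began 3694 bases upstream of the annotated start in M and 449 in MR, and the Myd88 locus began 1351 bases upstream of the RefSeq start in M and 15 in MR. Tlr2 began 359 and 2 bases upstream of its RefSeq start. In MR, Tlr6 was split into a locus of 5.30 TPM without strand and a small one of 0.129 TPM. The Acaa1a locus, on the other strand at 130.2 TPM in M and 170.3 in MR, began inside the annotated 5′ part of Myd88 in both libraries, and whether counting used strand was not given.

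Among the other Toll-like receptors, Tlr3, the double-stranded RNA receptor that signals without Myd88, was at 30.7 TPM in M and 7.54 in MR, which is -1.89 on the log2 scale. Tlr5 (0.972 and 0.933 TPM) and Tlr11 (0.883 TPM in M and listed at 0 in MR) were under the TPM minimum, and Tlr12 had no locus. The 5 other adaptors went both ways on the TPM scale. Ticam1 (TRIF), used by Tlr3 and Tlr4, was at 27.6 and 6.17 TPM (22.3% of the M level, but a log2 ratio of -1.02 on coverage), and its bridging partner Ticam2 at 12.2 and 5.51 (-1.02). Pik3ap1 (BCAP), which links the receptors to phosphoinositide 3-kinase, was at 429.5 and 188.4 (-1.18). Tirap, the sorting adaptor that brings Myd88 to Tlr2 and Tlr4, was higher in MR, at 6.09 and 12.4 TPM (0.92). Sarm1 was listed at 0 in M and at 3.18 TPM in MR. In total, 3 of the 5 were below -1 and 1 above 1, against 13.2% and 21.3% of all genes. On the coverage scale, where 10.1% of all genes were below -1 and 15.7% above 1, only Ticam1 remained below -1, Pik3ap1 was at -0.59, and Tirap had the opposite sign (-0.61), so the direction of Tirap depended on the unit.

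The genes for accessory proteins of the surface receptors were all lower in MR, with 4 of 8 below -1 (13.2% of all genes). Their median was -0.98. Cd180, a receptor relative that restrains Tlr4, was at 735.8 TPM in M and 61.9 in MR (-3.55), its partner Ly86 (MD-1) at 685.6 and 80.6 (-3.07), and Cd36, a co-receptor for Tlr2 with Tlr6, at 513.2 and 48.96 (-3.36). These 3 had lower ratios than any of the 10 genes. Itgb2 was nearly level at 416.2 and 400.97 TPM (-0.05), and Itgam, whose locus was shared with another gene, was at 171.4 and 135.0 (-0.34).

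The 15 accessory genes of the endosomal receptors had a median of -1.13. Of these, 8 were below -1 (13.2% of all genes) and 1 above 1 (21.3%). Unc93b1, the chaperone that carries Tlr7, Tlr8, Tlr9 and Tlr13 from the endoplasmic reticulum to endosomes, was at 719.9 TPM in M and 329.2 in MR (-1.13), so its level went from 1.23 to 3.36 times the summed level of these 4 receptors. The lowest ratios were those of Slc15a3, a peptide and histidine transporter of endolysosomes (402.2 and 44.5 TPM, -3.15), Lgmn, a protease that cleaves Tlr9 (2494 and 329.9, -2.91), and Pld4, an exonuclease that degrades Tlr9 ligands (681.1 and 118.2, -2.52). Hsp90b1, the chaperone gp96 on which most Toll-like receptors depend for folding, was at 578.1 and 597.6 TPM (0.05), and Ap3b1, an adaptor subunit that sorts receptors to lysosome-related compartments, at 65.6 and 74.7 (0.18). Acp5 (TRAP), on this list for its effect on interferon through Tlr9 and itself an osteoclast gene, was at 51.9 and 4947 TPM (6.55).

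**Figure D3:**
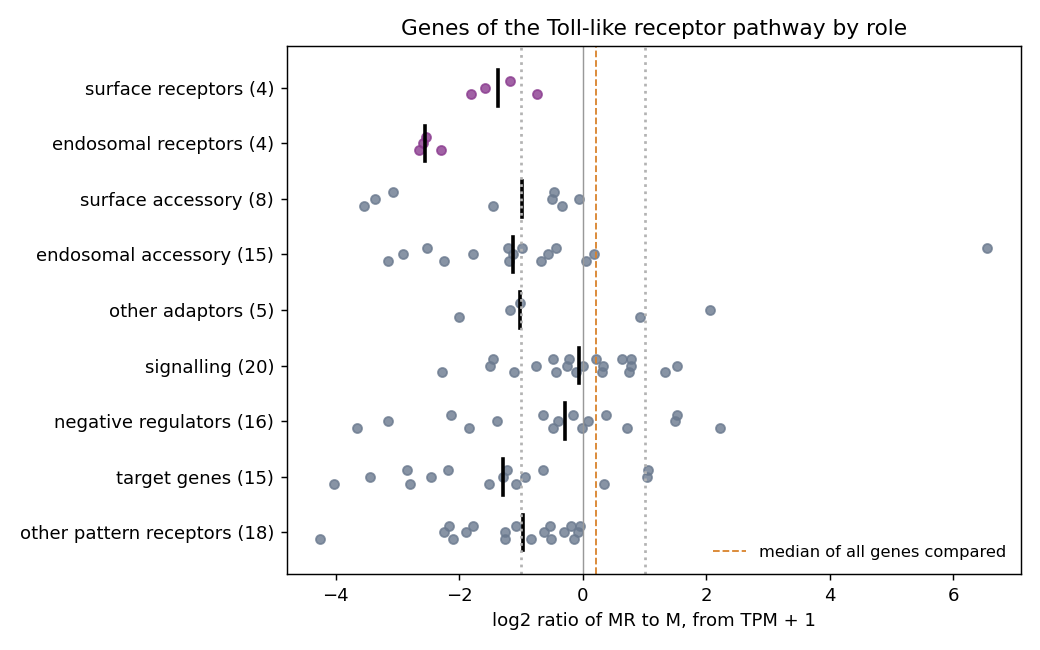
Log2 ratio of MR to M for each gene of the pathway, by role, with the number of genes that passed the TPM minimum in brackets; black bars are medians, the dashed line is the median of all genes (0.21) and dotted lines are at -1 and 1. The endosomal receptors lie between -2.65 and -2.29, and the signalling genes spread to both sides of 0 with a median of -0.06.

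Downstream of the receptors, the 20 signalling genes were evenly divided, 10 higher and 10 lower, with a median of -0.06. Over all genes, 40.5% were lower. Below -1 were 4 of the 20 and above 1 were 2, against 13.2% and 21.3% of all genes. Irak4, the first kinase to bind Myd88, was at 28.6 TPM in M and 21.01 in MR (-0.43), and Irak1 at 45.2 and 70.5 (0.63). Traf6, the ubiquitin ligase that RANK signalling also uses, was at 12.3 and 32.7 TPM (1.34), and it went from 0.0962 to 0.488 of the Myd88 level. Ikbkg (NEMO), the regulatory subunit of the IκB kinase, had the highest ratio at 21.2 and 62.9 TPM (1.53). The 4 below -1 were Ikbke, an interferon pathway kinase (92.2 and 18.3 TPM, -2.27), Irf7 (3735 and 1318, -1.50), Map3k8, the kinase Tpl2 (22.4 and 7.57, -1.45), and Irf5 (259.6 and 118.9, -1.12). Of these, Irf5 and Irf7 bind Myd88 directly, and Irf5 was at -0.90 on the coverage scale.

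Among 16 negative regulators with enough TPM, 5 were below -1 (13.2% of all genes) and 3 above 1 (21.3%). Their median was -0.29. The 3 above 1 were Nfkbia, the NF-κB inhibitor and target gene (91.8 and 431.6 TPM, 2.22), Sigirr (1.62 and 6.54, 1.52) and Tnfaip3, the ubiquitin-editing enzyme A20 (20.5 and 59.4, 1.49). The lowest were Cd300lf (115.9 and 8.32, -3.65), Atf3, a repressor of cytokine genes (408.3 and 44.8, -3.16), and Lilrb4a (1700 and 386.1, -2.14), whose locus was shared with another gene. On the coverage scale Cd300lf was at -2.37, behind Atf3, and Sigirr was at 0.89. Irak3 (IRAK-M), which holds the Myd88 complex in check, was at 22.3 and 5.51 TPM (-1.84).

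Of 15 genes that Toll-like receptor ligands are known to induce and that passed the TPM minimum, 12 were lower and 3 higher in MR. Below -1 were 10 (13.2% of all genes) and above 1 were 2 (21.3%). The 2 above 1 were low, Cxcl1 at 0.595 and 2.26 TPM (1.03) and Socs3 listed at 0 in M and at 1.09 TPM in MR. The median, -1.30, fell on Il12b, which was at 1.46 TPM in M and listed at 0 in MR. Il1b (3.61 and 0.967 TPM) and Cxcl2 (2.86 and 0.832), also among the 10 below -1, were low too. On the coverage scale Il12b was at -0.75, Il1b at -0.90 and Cxcl2 at -0.76. The chemokine Ccl5 was at 2135 and 130.5 TPM (-4.02), Acod1, which makes itaconate, at 369.03 and 33.1 (-3.44), Ccl4 at 255.5 and 34.6 (-2.85) and Tnf at 43.4 and 7.10 (-2.45). On the coverage scale 6 of the 15 were below -1 and 0 above 1, and Ccl4 was at -0.66. Il6, Ptgs2 and Ifnb1 had no locus in either library. The cultures were not given a receptor ligand according to the labels, so these are levels without added stimulation.

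Receptors for interleukin-1 family cytokines, which also use Myd88, were low, since the 4 of 5 that passed were all at or under 4.98 TPM. On the log2 scale 0 were below -1 and 1 above 1, against 13.2% and 21.3% of all genes. That one, Il1r1, was listed at 0 in M and was at 1.79 TPM in MR, with none above 1 on the coverage scale. Other pattern receptors were read as the families most like these receptors. All 18 were lower in MR on the TPM scale (17 on coverage), with a median of -0.96. Of these, 9 were below -1 and 0 above 1, against 13.2% and 21.3% of all genes. The scavenger receptor Marco was at 73.0 and 2.88 TPM (-4.25), the peptidoglycan sensor Nod1 at 59.0 and 11.7 (-2.24) and the C-type lectin Clec4e at 75.8 and 16.1 (-2.17), whereas the RNA sensor Ddx58 (RIG-I) was at 237.5 and 224.8 (-0.08). The median of the 8 Toll-like receptors and 2 partners, -1.69, was below that of these 18 on the TPM scale. On the coverage scale the 2 medians were closer, at -1.25 and -1.02, with 5 of the 10 and 9 of the 18 genes below -1. With 1 library per condition the difference was not tested.

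**Figure D4:**
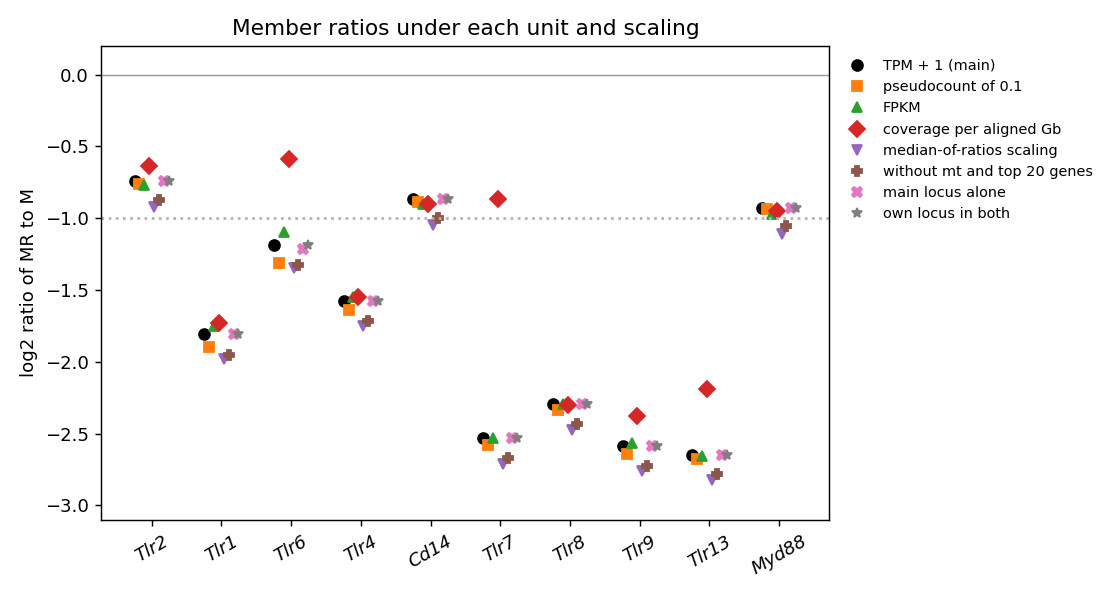
Log2 ratio of MR to M of each gene with TPM + 1 and under each of 7 other units, scalings or locus rules (symbols); the dotted line is at -1. Every value is below 0, and the points that stand apart are those on coverage for Tlr7 (-0.87), Tlr6 (-0.59) and Tlr13 (-2.19).

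Every gene was lower in MR in each of the 70 values that 7 alternatives gave, of which 19 equal the TPM values by construction, since the locus rules changed only Tlr6. Median-of-ratios scaling moved the median of all genes from 0.21 to 0.03, and on that scale Tlr13 was at -2.83, Tlr9 at -2.76, Tlr7 at -2.71 and Tlr8 at -2.47. This scaling moves all genes by nearly the same amount. Tlr2 ran from -0.92 to -0.64 over these alternatives and stayed above -1 in each.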

How the data were processed

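RNA was measured in 1 M and 1 MR library (paired reads of 150 bases). Per the methods and the submitters' processing notes, the authors trimmed reads with Trim Galore, used FastQC and SAMtools, mapped them to mm10 with HISAT2 and assembled transcripts with StringTie and GENCODE vM27 (versions not given in the sources used here). The deposited tables list TPM, FPKM and coverage per locus. The TPM column is a signal rather than a closed TPM, because assembled loci alone sum to 1000000 and entries with gene names add to this; those entries hold positions of another build (GRCm39) and were not used. For the members, 7 of 10 such entries were at 0 in both libraries and the others at most 0.616 TPM. The test design was written for TPM and was kept.

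The M library held 19422 assembled loci and 3.63 aligned Gb (estimated from coverage and FPKM, with 300 bases per read pair), and MR held 19922 loci and 2.98 Gb. A locus was given to the GENCODE vM21 gene with the most exon bases (at least 50) on its strand, or on either strand if it had none, which placed 95.4% and 96.9% of TPM. Of the genes given loci, 14416 had their own, 339 shared one and 414 lay inside that of another. Log2 ratios used TPM + 1. Counting intervals (Wilson, 95%) came from read pairs estimated with FPKM and the shortest coding transcript of the basic set; they cover counting error only, since reads without molecular identifiers are not independent molecules, and leave out the spread between cultures. No p-value was calculated. The assignment was tested only on simulated loci, each with the strand and nearly the extent of its annotated gene. Split loci, loci without strand and long extensions were therefore not covered by that test.

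The members and gene lists were chosen with earlier results of these data known. Named genes were all members, all other Toll-like receptors and all adaptors. Of each other list they were the defining genes and up to 3 highest and 3 lowest ratios. Itgam, Ddx58, Spi1 and Irf8 were named for their roles, and Il1b and Cxcl2 for their low levels. Alternatives changed the pseudocount, unit, scaling, locus rule, filter and threshold, and coverage was applied to the gene lists after the data were seen. Promoters were from RefSeq (GRCm38.p6). Calculations ran in Python 3.11.15 with pandas 2.3.3, scipy 1.17.1 (intervals) and numpy 2.4.6, and figures were drawn in matplotlib 3.10.9.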

Additional observations from a re-analysis of the deposited data

How the results depend on the processing

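Each condition had 1 library, so no replicate could be left out. No paired analysis was possible because each condition had 1 library and no result came from a test. Of 70 member values under alternatives, 70 were below 0 and 0 reversed, 19 of them equal to the TPM values by construction, and 10 moved by more than their counting interval: with coverage Tlr13 (-2.19), Tlr6 (-0.59), Tlr7 (-0.87) and Tlr9 (-2.38), and with median-of-ratios scaling Tlr13, Tlr7, Tlr8, Tlr9 and Myd88 (-1.11), and Tlr13 (-2.78) once the mitochondrial and the 20 top genes were taken out of the total. The cause of the moves on coverage was not tested. The number of members below -1 was 7, but 5 with coverage, 9 with either rescaling. Their median ran from -1.86 with median-of-ratios scaling to -1.25 with coverage. A threshold of 2 left 4 members, 520 genes below it and 956 above, by construction fewer. A TPM minimum of 10 left 981 genes below -1 and 1599 above 1, since fewer genes were compared. Median-of-ratios scaling gave 2151 and 2450 genes in place of 1781 and 2858. Coverage was also applied to the gene lists, a choice made after seeing the data. Below -1 it left 1 of 3 other adaptors and 6 of 10 target genes, and above 1 it left 0 of 2 target genes and 0 of 1 interleukin-1 family receptors. A pseudocount of 1 weighs more on this scale for low genes. At the depth of 2.98 aligned Gb in MR, the estimated pairs were 88 for Tlr6 and 105 for Tlr4. For Tlr4 the shortest coding transcript, 1866 bases, was used, while its MR locus held 4129 exon bases. Its count may therefore be too low and its interval too wide.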
